A study of Mus musculus with 66 samples.

Results

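The 6 libraries compared here are 3 of sorted NFIA-positive p2 progenitors and 3 of sorted NFIA-negative p2 progenitors, all WT and all taken at day 9 of differentiation. They were picked by their labels, out of 66 libraries in 26 groups, and were paired by replicate number. The comparison itself was chosen with earlier results of these data known. The series measured polyadenylated RNA in ventral spinal cord progenitors made from mouse embryonic stem cells, at days 5, 7, 9 and 11, in WT and MUT cells. For all groups described here, cells grew in N2B27 medium with 10 ng/ml bFGF, then 5 µM CHIR99021 (a GSK3 inhibitor) from day 2, then 100 nM retinoic acid and 10 nM SAG (a Smoothened agonist) from day 3, and SAG without retinoic acid from day 5. The sort followed fixation in 3% glyoxal and intracellular staining, with 10000 to 15000 cells per population. The NFIA gate is therefore a gate on protein, and each library is a pool of sorted cells. Besides these 6, use was made of 5 WT pM libraries at day 9 (2 NFIA-negative, 3 NFIA-positive) and of WT p2 libraries at day 5 (3, NFIA-negative), day 7 (3, NFIA-negative) and day 11 (2, NFIA-positive). The labels do not state whether same-numbered libraries came from 1 culture. In the paired fit of the 6 libraries, each p-value reflects the spread of the differences within the 3 pairs, not the spread between libraries. In this and the other fits the spread may be technical.

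The p2 domain is a band of progenitors in the ventral neural tube that gives rise to V2 interneurons and later to astrocytes. NFIA is a transcription factor of the nuclear factor I family that comes on in spinal cord progenitors around the switch from neuron to glia production and is known to promote gliogenesis while restraining neurogenesis. Cells on the way to becoming neurons pass through a short state marked by proneural bHLH factors and Notch ligands, and then leave the cell cycle.

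Values are normalised read counts, that is, read counts divided by a size factor of the library. Recovered reads ran from 24.47 to 25.8 M in the NFIA-negative libraries and from 21.4 to 22.97 M in the NFIA-positive ones, so the NFIA-negative libraries were the deeper ones throughout. Ribosomal protein genes took 5.44 to 11.34% of the signal in the NFIA-negative and 4.98 to 9.42% in the NFIA-positive libraries, and 70 of their 78 tested genes were at a lower value in the NFIA-positive library of all 3 pairs, with 0 called by limma (31 called lower in a fit over all 66 libraries with a replicate block). The part of this shift in the results below was not tested.

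Nfia mRNA was read first, as a check on the gate and not as a result. It stood at 457, 169 and 77.8 in NFIA-negative replicates 1 to 3 and at 1122, 408 and 643 in NFIA-positive replicates 1 to 3. The NFIA-positive library was the higher one in each pair, while NFIA-negative replicate 1 exceeded NFIA-positive replicate 2, so the groups overlapped. The difference was 1.86 ± 0.36 (log2, SE, 3 pairs; limma adjusted p = 0.073). Nfib, a second family member, differed by 1.10 ± 0.31 (limma adjusted p = 0.17). Markers of the p2 domain were present on both sides of the gate. Pax6 stood between 1848 and 2217 without NFIA and between 1803 and 2012 with it, and Nkx6-1 between 170.6 and 580.7 and between 188.9 and 420.7. Olig2, which marks the neighbouring motor neuron progenitors, reached at most 85.5 in the 6 libraries, against a mean of 1317 in NFIA-negative and 2236 in NFIA-positive pM.

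Of 13540 genes tested, 39 were higher (0.288% of genes tested) and 25 lower (0.185%) in NFIA-positive p2 at a limma adjusted p under 0.05. Of the 25 lower genes, 7 are on the list of neurogenic progenitors, and the D-type cyclin Ccnd1 was also lower. The higher side held 5 genes of G2 and mitosis, 4 of the astroglial and 3 of the mesenchyme list. The count rests on the pairing and on replicate 2: without replicate 2, limma called 0 genes (906 at an unadjusted p under 0.05), without replicate 1 it called 126 and without replicate 3 it called 642, and a fit without the replicate block called 3. All 64 called genes kept their direction in each of the 11 alternatives run, but most of these could not change it. Leaving out a replicate could not, since each called gene went the same way in every pair. Dropping the block or fitting all 66 libraries leaves the mean difference as it is.

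**Figure D1:**
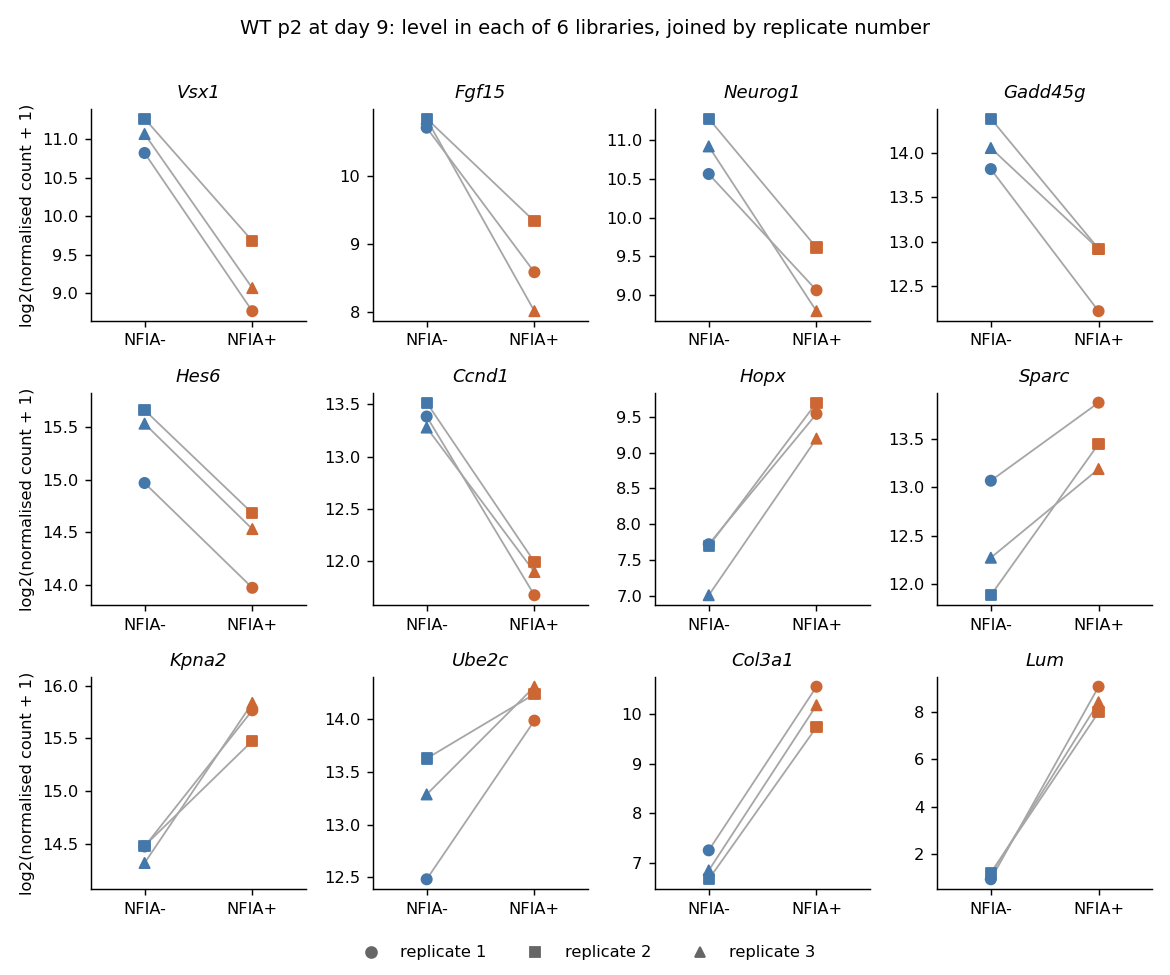
Normalised counts of 12 called genes on a log2(normalised count + 1) axis, 1 panel per gene with its own axis range. Points are the 6 libraries, marked by replicate number, and lines join same-numbered libraries; the NFIA-positive libraries lie below the NFIA-negative ones for Vsx1, Fgf15, Neurog1, Gadd45g, Hes6 and Ccnd1 and above them for the other 6 genes.

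To show the promoters of genes on either side of the gate, the 250 bases upstream of the start site are given for 3 mitotic genes called higher and for a pair of neurogenic genes called lower, from RefSeq on GRCm38.p6. In the mitotic genes, capitals mark CCAAT and TTTGAA on either strand, the CCAAT box and the cell cycle homology region known from promoters of mitotic genes. They were chosen as called genes with both motifs. Ube2c lies at chr2:164769679-164769928 (plus strand), Kpna2 at chr11:106999526-106999775 (minus) and Fam83d at chr2:158767849-158768098 (plus).
Ube2c: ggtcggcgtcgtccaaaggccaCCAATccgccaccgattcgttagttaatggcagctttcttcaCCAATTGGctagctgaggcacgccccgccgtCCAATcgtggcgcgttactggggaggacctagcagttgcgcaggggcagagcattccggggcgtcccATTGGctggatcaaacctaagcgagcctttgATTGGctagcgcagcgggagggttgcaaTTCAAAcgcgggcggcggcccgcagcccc
Kpna2: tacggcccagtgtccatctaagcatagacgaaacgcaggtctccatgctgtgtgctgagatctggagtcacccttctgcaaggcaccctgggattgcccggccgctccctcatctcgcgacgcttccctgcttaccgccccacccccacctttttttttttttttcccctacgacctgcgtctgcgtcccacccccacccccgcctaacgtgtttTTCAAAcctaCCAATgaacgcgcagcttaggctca
Fam83d: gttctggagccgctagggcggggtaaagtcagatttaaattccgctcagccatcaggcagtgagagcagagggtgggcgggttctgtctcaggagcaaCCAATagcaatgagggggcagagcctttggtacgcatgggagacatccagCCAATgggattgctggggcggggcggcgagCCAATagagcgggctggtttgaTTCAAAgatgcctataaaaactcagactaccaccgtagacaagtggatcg
In the neurogenic genes, capitals mark CAGCTG, an E-box bound by proneural bHLH factors that reads the same on both strands. Gadd45g lies at chr13:51846425-51846674 (plus strand) and Hes6 at chr1:91414039-91414288 (minus, the more upstream of 2 starts).
Gadd45g: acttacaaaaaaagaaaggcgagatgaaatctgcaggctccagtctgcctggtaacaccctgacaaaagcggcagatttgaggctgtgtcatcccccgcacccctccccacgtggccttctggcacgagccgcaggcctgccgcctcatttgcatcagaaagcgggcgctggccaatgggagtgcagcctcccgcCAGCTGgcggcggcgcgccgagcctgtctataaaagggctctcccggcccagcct
Hes6: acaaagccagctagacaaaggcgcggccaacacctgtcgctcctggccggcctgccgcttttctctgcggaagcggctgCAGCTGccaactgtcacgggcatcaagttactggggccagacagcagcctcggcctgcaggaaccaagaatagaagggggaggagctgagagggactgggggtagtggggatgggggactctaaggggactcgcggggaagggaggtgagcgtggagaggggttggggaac
CCAAT was present upstream of 31 of the 36 G2/M genes with a promoter sequence (86.1%), against 41.0% of 10219 tested genes, and TTTGAA in 13 of 36 (36.1%), against 12.1%. CCAAT was not confined to mitotic genes: it was in 13 of 21 neurogenic genes (61.9%), Gadd45g among them, where it is left in lower case. Of genes with a sequence, CCAAT was in 11 of 24 called higher (45.8%) and 5 of 17 called lower (29.4%). TTTGAA was in 2 of 21 neurogenic genes (9.52%), in 8 of 24 called higher (33.3%) and in 1 of 17 called lower (5.88%). These differences in share were not tested. The motifs can share letters where they meet, and CCAAT can overlap its own reverse complement, as in Ube2c, where both strands were counted. CAGCTG was found in 7 of 21 neurogenic genes (33.3%), against 14.3% of tested genes, and a second E-box, CAGATG, in 4 of 21 (19%), against 11.9%. CAGCTG was in 5 of 24 genes called higher (20.8%) and 5 of 17 called lower (29.4%). CAGATG was in 3 of 24 called higher (12.5%) and 1 of 17 called lower (5.88%). The E-box shares were not tested either. The palindromic NFI motif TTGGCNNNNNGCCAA, whose TTGGC arm can share letters with CCAAT on the other strand, was in none of the 24 genes called higher or 17 called lower with a sequence, and in 0.0294% of tested genes. These are matches of letters in 1 window and not binding sites.

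On the neurogenic progenitor list, 7 of 25 tested genes were lower in NFIA-positive p2 and 0 were higher. The list's median difference was -0.93 on the log2 scale, against -0.01 over all genes tested, and 19 of 25 members were at a lower value in all 3 pairs, against 20.4% of all genes. Neurog1, a proneural bHLH factor, stood at 1507, 2469 and 1927 in NFIA-negative replicates 1 to 3 and at 535, 782 and 444 in the NFIA-positive ones. No NFIA-positive library reached the lowest NFIA-negative one, and Neurog1 fell by 1.76 ± 0.18 on the log2 scale (limma adjusted p = 0.0073). Neurod4, which acts in the same cascade, went from 3917, 5254 and 3959 to 1208, 2164 and 733.3, a difference of -1.80 ± 0.21 (limma adjusted p = 0.013). Gadd45g, a growth arrest gene of newly committed neural cells, went from 14442, 21447 and 17035 to 4746, 7737 and 7729, a difference of -1.41 ± 0.12 (limma adjusted p = 0.0048). Hes6, which counters the Notch effector Hes1, went from 32030, 51625 and 47220 to 16131, 26287 and 23694, a difference of -0.99 ± 0.10 (limma adjusted p = 0.0085). In all of these genes the groups did not overlap, as in 4.93% of all genes for the lower direction.

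The other 3 called members were the zinc finger factor Insm1 (-1.47 ± 0.19; limma adjusted p = 0.061 over all 66 libraries with a replicate block), the somatostatin receptor Sstr2 (-1.22 ± 0.16) and Mfng, a glycosyltransferase that modifies Notch ligand and receptor binding (-1.07 ± 0.16). Neurog2 (-0.93 ± 0.17, limma adjusted p = 0.064) and Btg2, an antiproliferative gene of neuron-producing divisions (-0.82 ± 0.15, limma adjusted p = 0.064), did not pass, although their groups did not overlap.

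Vsx1, a homeobox gene of V2 interneuron precursors, was the member of the p2 identity and V2 neuron lists that passed. It stood at 1812, 2470 and 2150 in NFIA-negative libraries and at 435, 820 and 536 in NFIA-positive ones, a difference of -1.88 ± 0.17 (limma adjusted p = 0.0048). The groups did not overlap, and in the fit over all 66 libraries with a replicate block Vsx1 was not called (limma adjusted p = 0.19). Foxn4, which acts upstream in V2 neurogenesis, differed by -0.86 ± 0.23 and did not pass (limma adjusted p = 0.16). Among the 15 tested V2 neuron genes the median was -0.78 and 8 were at a lower value in all 3 pairs, against 20.4% of all genes. Gata3, a marker of V2b neurons, differed by -1.66 ± 0.54 (limma adjusted p = 0.23), and St18 by -0.78 ± 0.22 (limma adjusted p = 0.18). Lmo4, a LIM-only protein of the V2b program, went the other way at 0.74 ± 0.17 (limma adjusted p = 0.13). Of the pan-neuronal list, 1 of 26 was higher and 0 lower, with a median of 0.13: Nefl, a neurofilament subunit, went from 3414, 968.8 and 2323 to 9808, 3063 and 4336 (1.36 ± 0.16, limma adjusted p = 0.017), with overlapping groups. In bulk libraries, fewer cells of a type and less RNA per cell cannot be told apart.

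Markers of motor neurons, another cell type these cultures hold, were mostly at higher values in NFIA-positive p2 without passing the test. Of 13 tested, 1 was lower, 0 were higher and the median was 1.15. In all 3 pairs, 9 were at a higher and 2 at a lower value, against 17.5% and 20.4% of all genes. The lower one was Ebf2, a factor of early neuronal differentiation (-1.25 ± 0.18, limma adjusted p = 0.033). Prph, a neurofilament-type protein of motor and sensory neurons, differed by 2.06 ± 0.40 (limma adjusted p = 0.073) and Slc18a3, the vesicular acetylcholine transporter, by 1.15 ± 0.24 (limma adjusted p = 0.095). The list's summed level was 2665 to 3490 in NFIA-negative and 2316 to 4896 in NFIA-positive p2, against 11834 to 16724 in pM. By pair it rose in replicate 1 (3490 to 4896) and fell in replicates 2 (2861 to 2316) and 3 (2665 to 2518). Its part in the gate difference was not tested.

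Ccnd1, the D-type cyclin that drives the passage through G1, stood at 10672, 11695 and 9920 in NFIA-negative libraries and at 3273, 4081 and 3817 in NFIA-positive ones. The 3 libraries of each side lay close together and the difference was -1.53 ± 0.12 (limma adjusted p = 0.0043). Cdkn1a, the CDK inhibitor p21, was also lower, from 6595, 8092 and 8361 to 4079, 4639 and 3958 (-0.86 ± 0.12, limma adjusted p = 0.033). Ccnd1 and Cdkn1a are the 2 called genes among 16 regulators of G1. Among S-phase genes, 1 of 34 was lower and 0 higher, with a median of -0.27: Cdc6, which licenses replication origins (-1.04 ± 0.17, limma adjusted p = 0.044; edgeR adjusted p = 0.053).

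Genes of G2 and mitosis pointed the opposite way. Of 42 tested, 5 were higher and 0 lower, with a median of 0.54, and 28 of 42 were at a higher value in all 3 pairs, against 17.5% of all genes. Ube2c, the ubiquitin-conjugating enzyme of the anaphase-promoting complex, went from 5720, 12629 and 9978 to 16190, 19259 and 20220 (1.04 ± 0.16, limma adjusted p = 0.039). NFIA-negative replicate 1 was the lowest library and the groups did not overlap, as in 6.29% of all genes for the higher direction. Prc1, which bundles microtubules of the central spindle, differed by 0.98 ± 0.13, the kinase Aurkb by 0.94 ± 0.14, and the kinetochore proteins Cenpf and Cenpe by 0.98 ± 0.14 and 1.15 ± 0.16 (limma adjusted p from 0.025 to 0.033). Cdk1, the mitotic kinase, stood at 5910, 9768 and 10779 against 13403, 16625 and 15316 and did not pass (0.82 ± 0.14, limma adjusted p = 0.058; edgeR adjusted p = 0.041). Outside the list, Kpna2, an importin that carries cell cycle proteins, rose from 22855, 22958 and 20512 to 55715, 45618 and 58458 (1.26 ± 0.13, limma adjusted p = 0.0073). Fam83d, a spindle protein, differed by 1.41 ± 0.14. Both were chosen after their values were seen.

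**Figure D2:**
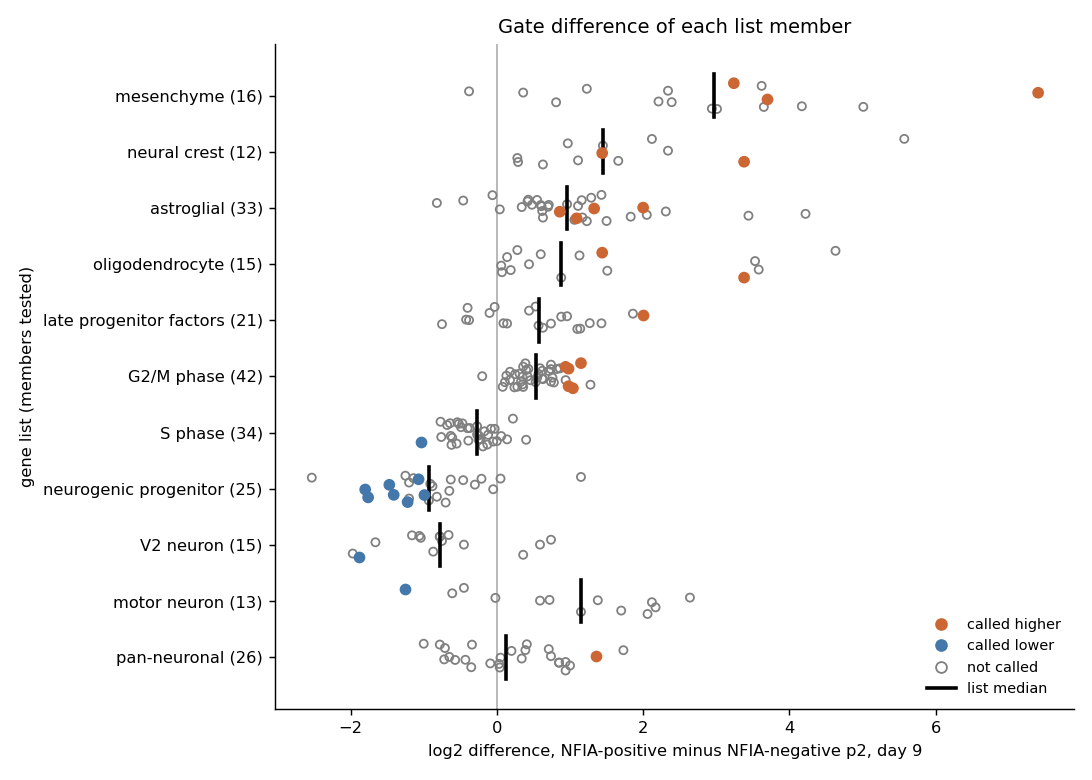
Log2 difference (NFIA-positive minus NFIA-negative p2) of every tested member of 11 gene lists, with the number tested in brackets; filled points passed limma's adjusted p of 0.05, open points did not, and the black bar is the list median. The medians are -0.93 for the neurogenic progenitor list, 0.54 for G2/M and 2.97 for mesenchyme. Of the 16 tested mesenchyme genes, 8 passed the filter only through the NFIA-positive libraries and so had to differ. The other 8 had a median of 1.72.

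On the astroglial list, 4 of 33 tested genes were higher and 0 lower. The median was 0.96 and 24 of 33 were at a higher value in all 3 pairs, against 17.5% of all genes. Of the 33, 5 passed the filter only through the NFIA-positive libraries, and the other 28 had a median of 0.70. Hopx, a homeodomain-only cofactor of radial glia and astrocyte precursors, stood at 210, 206 and 128 in NFIA-negative and at 744, 830 and 585 in NFIA-positive libraries. Each NFIA-positive library was above every NFIA-negative one, with a difference of 2.00 ± 0.23 (limma adjusted p = 0.013). Fabp7, the brain lipid binding protein of radial glia, went from 30274, 57917 and 31774 to 45735, 100796 and 72384 (0.86 ± 0.13, limma adjusted p = 0.039), and here NFIA-negative replicate 2 lay above NFIA-positive replicate 1. Sparc and Sparcl1, secreted matricellular proteins made by astrocytes, differed by 1.09 ± 0.16 and 1.33 ± 0.21 (limma adjusted p = 0.033 and 0.038). Sparcl1 was not called over all 66 libraries with a replicate block (limma adjusted p = 0.13). Ttyh1, a channel-like protein of radial glia, did not pass (0.71 ± 0.12, limma adjusted p = 0.06).

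Spon1, a secreted protein of the floor plate, was the 1 gene called higher of 9 on the p3 and floor plate list (1.52 ± 0.16, limma adjusted p = 0.0079). That list had a median of 0.26, or 0.16 without 1 gene that passed the filter only through the NFIA-positive libraries. Its summed level was 1825 to 3590 in NFIA-negative and 4271 to 6568 in NFIA-positive libraries. That sum includes Spon1, whose own mean was 1052 in NFIA-negative and 2905 in NFIA-positive libraries. The part of floor plate cells in the gate difference was not tested. Timp3, a metalloproteinase inhibitor (1.75 ± 0.26), Igfbp5, an IGF binding protein (1.31 ± 0.18), and Igf2 (1.00 ± 0.15) lay outside the naming rule and were chosen after their values were seen. H19, the noncoding RNA next to Igf2, differed by 2.05 ± 0.28 (limma adjusted p = 0.03). Of 21 late progenitor factors, 1 was higher (Hopx) with a median of 0.57. Of 17 immediate early genes, 1 was higher, with a median of 0.88: Fos (1.03 ± 0.15, limma adjusted p = 0.033), with overlapping groups. The summed level of the immediate early list was 27417 to 41251 in NFIA-negative and 21328 to 30952 in NFIA-positive libraries. Slit2, a repellent for axons and the only called gene of 35 in the axon guidance list, went from 174, 107 and 67.3 to 684, 338 and 225 (1.78 ± 0.29, limma adjusted p = 0.041).

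Genes known from connective tissue and neural crest were among those with the largest log2 differences. Lum, the small proteoglycan lumican of collagen fibrils, stood at 0.9, 1.3 and 1.2 in NFIA-negative p2, which is 3 reads over the 3 libraries, and at 534, 252 and 338 in NFIA-positive p2, or 1035 reads. The ratio of the pooled reads, each divided by the summed size factors of its 3 libraries, was 354. Its 95% interval of 121 to 1720 covers counting error only (limma difference 7.40 ± 0.67, adjusted p = 0.0048). Lum passed the filter on low values only through the NFIA-positive libraries, as did S1pr3 among the 39 genes called higher, so that both had to differ. Col3a1, a fibrillar collagen, went from 151, 100 and 114 to 1499, 851 and 1157 (3.24 ± 0.22, limma adjusted p = 0.0032). Postn, a matrix protein of periosteum and other mesenchyme, went from 22.3, 4.0 and 96.3 to 429, 134 and 433 (3.70 ± 0.56, limma adjusted p = 0.037). In these 3 genes the groups did not overlap. Foxf1, a factor of visceral mesoderm (3.62 ± 0.53), S1pr3, a sphingosine phosphate receptor (4.38 ± 0.63), and the gelatinase Mmp2 (2.87 ± 0.41) shared a limma adjusted p of 0.033.

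Of 16 tested genes on the mesenchyme list, 3 were higher and the median was 2.97. The list's summed level was 1323 to 1646 in NFIA-negative and 3442 to 4951 in NFIA-positive libraries, at most 0.0232% of the signal of a library. Of its 17 genes in the table, 0 were at 0 in all 6 libraries. Of the 16 tested, 8 passed the filter only through the NFIA-positive libraries, Lum among them. The other 8 had a median of 1.72, with 2 called. Col1a2 (3.62 ± 0.62, limma adjusted p = 0.054) and Dcn (3.65 ± 0.66, limma adjusted p = 0.064) did not pass. Of 12 tested neural crest genes, 2 were higher, with a median of 1.45 and summed levels of 5739 to 16943 against 12327 to 23158. Of the 12, 2 passed the filter only through the NFIA-positive libraries, and the other 10 had a median of 1.28, with 2 called. One of the called genes was Sox10, a factor of crest and oligodendrocyte lineage cells (33.1, 4.0 and 18.6 against 269, 43.8 and 312; 3.38 ± 0.54, limma adjusted p = 0.039). Sox10 is also on the oligodendrocyte list, where 2 of 15 were higher, with a median of 0.88, or 0.44 without 4 genes that passed the filter only through the NFIA-positive libraries. Dlx2 was listed at 0 in all NFIA-negative libraries and at 67.4, 16.3 and 89.5 in the NFIA-positive ones (limma adjusted p = 0.1). It passed the filter only through the NFIA-positive libraries, so it had to differ. Ednrb, the endothelin receptor of crest and astroglia, differed by 1.11 ± 0.21 (limma adjusted p = 0.067). Of 15 markers of endothelium, blood and microglia, 6 were at 0 in all 6 libraries, Ptprc among them, and 2 passed the filter on low values. The part of other cell types in the gate difference was not tested.

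A further 5 genes called higher with NFIA have no list of their own. The annexins Anxa2 and Anxa6, which bind membranes through calcium, differed by 2.68 ± 0.24 and 2.17 ± 0.34. Phactr1, a regulator of actin and phosphatase 1, differed by 3.13 ± 0.43, Hs3st1, a heparan sulphate sulphotransferase, by 2.37 ± 0.35, and Fam198b, a Golgi-associated protein, by 1.96 ± 0.31. For Phactr1 the groups overlapped. Has2, the hyaluronan synthase, stood at 17.9, 12 and 10.4 against 109, 151.5 and 93.2 and did not pass (3.04 ± 0.57, limma adjusted p = 0.067), and 0 of 13 hyaluronan matrix genes were called (1 by edgeR). Dbx2, a homeobox gene of intermediate progenitors, did not pass either (1.63 ± 0.31, limma adjusted p = 0.073).

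Fgf15, a secreted FGF of neural progenitors that is known to favour neuronal differentiation, had the largest negative difference of the called genes. It stood at 1682, 1847 and 1837 without NFIA and at 384, 646 and 257 with it (-2.16 ± 0.25, limma adjusted p = 0.013). The spread among the NFIA-negative libraries was small beside the gap. It was the 1 called gene of 18 in the FGF response list, whose median was 0.47. Other genes lower by rank were Akr1b8, an aldo-keto reductase (-1.63 ± 0.20), Hes2, a hairy-related repressor (-1.56 ± 0.18; limma adjusted p = 0.45 over all 66 libraries with a replicate block), Galnt18, an enzyme of O-glycosylation (-1.28 ± 0.18), Fam183b (-1.22 ± 0.18, with overlapping groups) and Alpl, the tissue-nonspecific alkaline phosphatase (-1.19 ± 0.15). Of 17 Notch response genes, 0 were called by limma or edgeR, with a median of 0.41.

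The same gate was read in pM progenitors of the same day, where limma called 28 of 13954 genes higher (0.201%) and 2 lower (0.0143%). They come from a fit that shares its replicate block with the p2 libraries, since replicate 2 of pM has no NFIA-negative library, so the pM and p2 calls are not independent. Of the 39 genes higher in NFIA-positive p2, 9 were higher in pM, among them Hopx, Fabp7, Sparc, Igfbp5, Kpna2, Prc1, Cenpf and Fam83d. The median pM difference of the 39 was 0.89, against 0.04 over all genes, and 38 were positive. Hopx differed by 1.81 ± 0.26 in pM, Kpna2 by 1.41 ± 0.21 and Cdk1, not called in p2, by 1.40 ± 0.20 (limma adjusted p = 0.012 for each). The G2/M list had a median of 0.58 in pM, with 6 of 42 higher. Of the 25 genes lower in p2, 1 was lower in pM, and their median was -0.33. The neurogenic list had a median of -0.28 in pM with 0 called of 25: Neurog1 differed by -1.18 ± 0.23 (limma adjusted p = 0.058), Gadd45g by -0.53 ± 0.18 and Hes6 by -0.20 ± 0.15. The pM counts fell to 0 without replicate 2 (1725 genes at an unadjusted p under 0.05) or replicate 3 (1004), and to 2 without replicate 1.

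**Figure D3:**
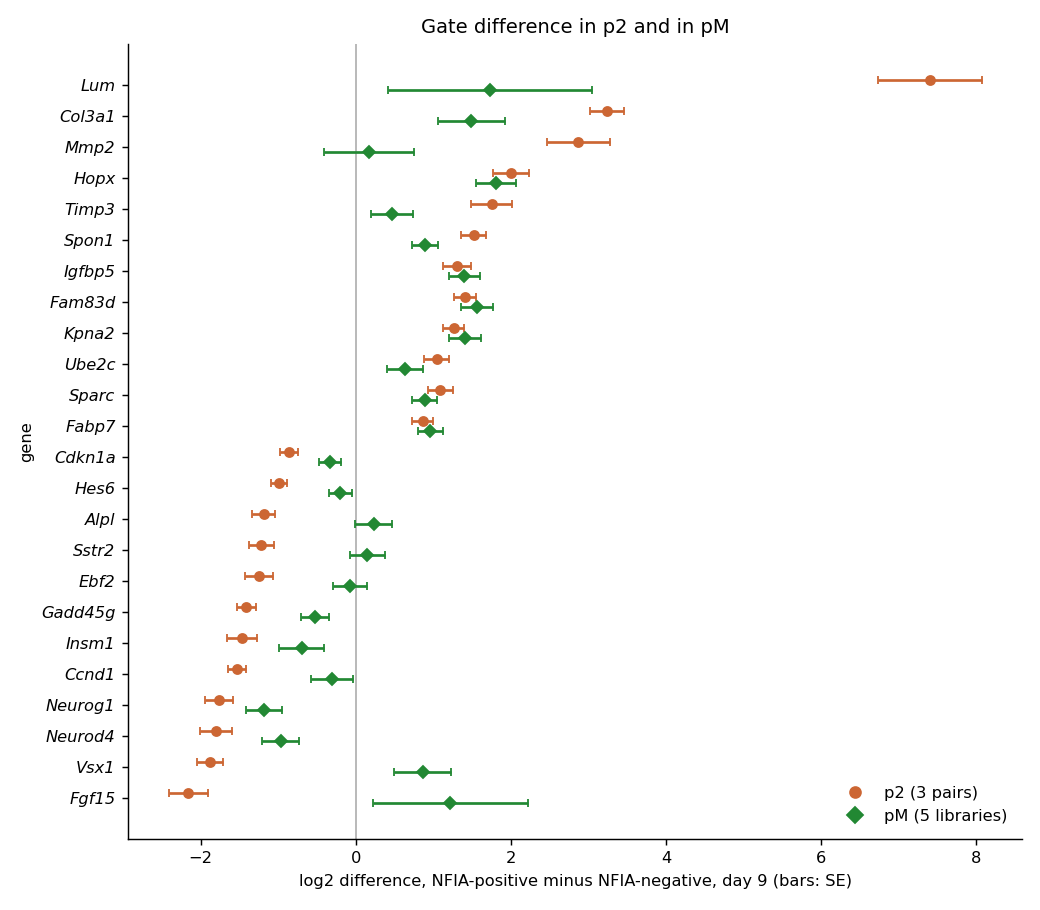
Log2 difference between NFIA-positive and NFIA-negative libraries at day 9 for 24 genes called in p2, in p2 (circles, 3 pairs) and in pM (diamonds, 5 libraries), with bars of 1 SE. Hopx and Kpna2 lie close together in both domains, while Vsx1 and Fgf15 lie on opposite sides of 0.

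Whether the gate difference itself differed between p2 and pM was tested in 1 fit over the 11 libraries. No gene passed (0 by limma, lowest adjusted p = 0.29, 1248 genes or 8.94% at an unadjusted p under 0.05; 0 by edgeR; 141 by DESeq2, of which 138 negative). Vsx1 differed by -1.88 in p2 and 0.86 in pM, and the difference between them was -2.75 (limma adjusted p = 0.29). Vsx1 was near its floor in pM, with a mean of 19 in NFIA-negative and 41.9 in NFIA-positive libraries. Fgf15 differed by -2.16 in p2 and 1.22 ± 1.00 in pM, with a difference between them of -3.38 (limma adjusted p = 0.45), and its pM means were 38.4 and 45.6. For Lum the difference between domains was 5.67 (limma adjusted p = 0.31). A p above the threshold does not show that the domains respond alike: on simulated data this test recovered 18% of 2-fold and 68% of 4-fold changes.

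The days around day 9 show where the levels on both sides of the gate lie. Hopx stood at 17.5, 29.7 and 43.8 in the day 7 libraries, at 128 to 210 in NFIA-negative and 585 to 830 in NFIA-positive libraries of day 9, and at 8454 and 5803 at day 11. Sparc followed the same order, from 1788 to 1923 at day 7 through 3790 to 8585 and 9333 to 14993 to 26314 and 27164. In neither gene did neighbouring groups overlap. Lum did not follow it, at 97, 147 and 719 at day 7, near 1 in NFIA-negative day 9 and at 107 and 518 at day 11. The NFIA-negative libraries of day 9 were the low ones among days 7 to 11. At day 5 Lum stood at 39.8, 0.0 and 14.9, so replicate 2 of day 5 was lower still.

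The neurogenic gene Neurog1, Vsx1 and Ccnd1 had their highest levels in NFIA-negative day 9 libraries. Neurog1 stood at 1447, 763 and 501 at day 7, at 1507 to 2469 in NFIA-negative and 444 to 782 in NFIA-positive day 9 libraries, and at 758 and 711 at day 11. Vsx1 stood at 945, 619 and 481 at day 7 and at 522 and 453 at day 11, against 435 to 820 in NFIA-positive day 9 libraries. Ccnd1 stood at 8737, 4223 and 3680 at day 7 and at 3510 and 3908 at day 11. The 3 NFIA-negative libraries of day 9 were above every library of days 7 and 11 in these 3 genes. Sstr2, also lower with NFIA at day 9, did not share that pattern: it stood at 499 to 835 at day 7, at 1921 to 1995 in NFIA-negative day 9 libraries and at 3468 and 2535 at day 11.

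**Figure D4:**
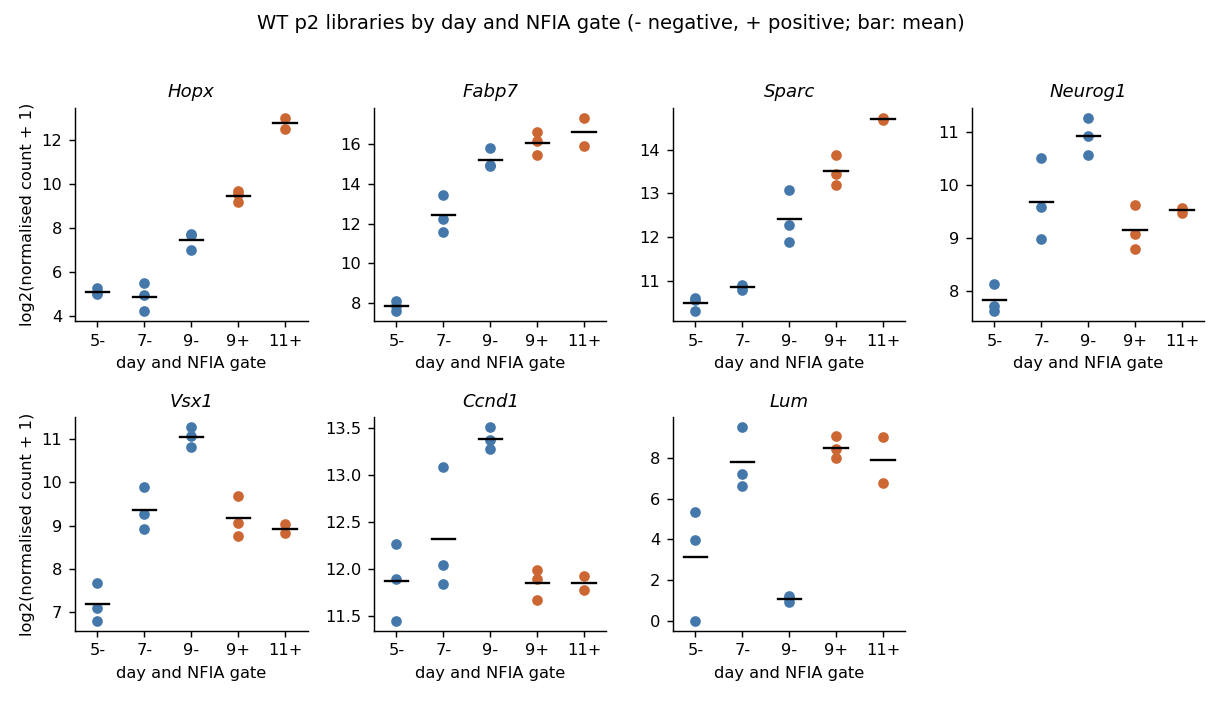
Levels of 7 genes in WT p2 on a log2(normalised count + 1) axis with its own range per gene, by day and NFIA gate (5, 7 and 9 negative; 9 and 11 positive); points are libraries and bars are means. Hopx and Sparc step up from 7 to 11, and Neurog1, Vsx1 and Ccnd1 are highest in NFIA-negative day 9.

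Day 11 NFIA-positive p2 was also compared with day 7 NFIA-negative p2, libraries that the gate comparison does not use; day and gate cannot be told apart here. Limma called 337 genes higher (2.48%) and 156 lower (1.15%). Of the 39 genes higher with NFIA at day 9, 11 were higher and 0 lower, with a median of 0.72 against 0.05 over all genes. By sign alone, 24 of the 39 were positive and 15 negative. Among the 11 were Fabp7, Fam198b, Fos, Hopx, Hs3st1, Igfbp5, Sparc, Sparcl1, Spon1 and Timp3. Hopx differed by 7.90 ± 0.45 and Sparc by 3.84 ± 0.27 (limma adjusted p = 0.001 and 0.0017). On the astroglial list 18 of 33 were higher. The mitotic genes were not among them, with 0 of 42 G2/M genes called and a median of -0.70. On simulated data the day 11 test recovered 0% of 2-fold and 8% of 4-fold changes, so the lack of calls does not show that these genes were unchanged. Of the 25 genes lower with NFIA at day 9, 3 were lower and 2 higher, with a median of -0.06: Cdkn1a (-1.71 ± 0.28) and Cdc6 (-1.93 ± 0.39) were among the lower and Sstr2 (2.21 ± 0.31) among the higher. Limma called 0 genes when either day 11 library was left out (1523 at an unadjusted p under 0.05 without replicate 2, 1809 without replicate 3), 2379 without day 7 replicate 3, 231 without day 7 replicate 1 and 304 without day 7 replicate 2.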

How the data were processed

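Per the submitters' processing notes, the authors aligned to mm10 and normalised with DESeq2; versions and the aligner are not stated in the labels. Values are the deposited signal, in normalised read counts for each gene symbol. Division by the smallest value of a library gave whole numbers within 0.01 for 100% of values in the libraries compared, so reads were recovered. Genes with a value of 10 or more in 2 or more of the 6 libraries (13540 of 24410) were tested with limma 3.58.1 (R 4.3.3) on log2(value + 1) with a variance trend and the replicate number as a block. P-values are two-sided, Benjamini-Hochberg adjusted over all genes tested, and called at 0.05. A fold change on this scale understates that of low genes. The pM difference and the difference between domains come from 1 limma fit of the 11 p2 and pM libraries, with the replicate number as a block shared by both domains. The day fit used 5 libraries and no block. Alternatives included edgeR 4.0.16 and DESeq2 1.42.0 on recovered reads. Deviations from group means of same-numbered libraries correlated at 0.31, 0.17 and 0.05. On simulated data the gate test recovered 49% of 2-fold and 88% of 4-fold changes, with 13.84% of calls false. The day 11 test recovered 0% and 8%. The comparison, members and 35 gene lists were chosen with earlier results of these data known. Named genes are the 15 of largest difference per direction among called genes with a mean of 50 or more and 1 direction in all 3 pairs, fixed regulators, and up to 5 per list by p; some genes that meet it are not reported here. Promoters are RefSeq's, matched by symbol for 10219 of the tested genes.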

Additional observations from a re-analysis of the deposited data

How the results depend on the processing

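The p2 gate comparison called 64 genes, and counts moved by over 1.5 times with a pseudocount of 8 (109), DESeq2 (520), no replicate block (3) and a fit of all 66 libraries with the replicate block (646). Leaving out 1 replicate gave 0 to 642. TMM, edgeR, no filter and all 66 libraries without the block stayed within 1.5 times. With that 66-library block, 51.1% of calls were higher, against 60.9%. The replicate block rests on numbers alone: the same-number correlation of replicate 3 was 0.05, and 5 of 6 libraries correlated best with their own number, a hint from the data. Of the 64 calls, 3 remained without the block, 62 with edgeR and 58 in the 66-library block fit, where Vsx1, Hes2, Insm1 and Sparcl1 were among those lost. The Olig2 difference, near 0, ran from -0.02 to 0.28 when 1 replicate was left out and was negative without replicate 3. In pM (30 called), no filter gave 1, DESeq2 278, no replicate block 0 (682 genes at an unadjusted p under 0.05 in limma), all 66 libraries 99 with and 4 without the block, and leaving out 1 replicate 0 to 2. Between p2 and pM, DESeq2 gave 141 and all 66 libraries with the block 13, against 0. For day 11 against day 7 (493 called), DESeq2 gave 1480, all 66 libraries 1482, and leaving out 1 library 0 to 2379. The cause of these changes was not tested. With 3 pairs and 2 residual degrees of freedom, 2-fold differences were often missed in simulation.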
